A study of Mus musculus with 6 samples.

Results

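The genes described here are 36 genes of glycolysis, of glucose and lactate transport, of glycogen metabolism and of the response to low oxygen. The genes were chosen by name, with earlier results of these data known. They were read by 56 probes of the 41068 analysed, and 35 of the 36 genes entered the test, among 20091 features in all. The exception was Pygm, the muscle form of glycogen phosphorylase, whose probe was well above background on none of the arrays and for which no level is given. All 35 tested genes were well above background on all 6 arrays, so none of them entered only through a group in which it was bright.

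RNA came from primary astrocyte cultures made from striatum and cortex of wild-type C57BL/6J pups at 1-day postnatal, and 6 one-colour arrays fell into 3 groups of 2. Washout cultures received 1 µM Ro3303544, a small-molecule inhibitor of the kinase GSK-3, during 48 h, followed by 48 h in growth medium without it. Ro cultures received 1 µM Ro3303544 for 48 h. Control cultures are labelled as control medium with 10% serum, while the protocol speaks of a matching amount of the solvent DMSO. All groups had the same 10% serum, 33 mM glucose and 2 mM glutamine in the growth medium. All had also been exposed to 5 µM cytosine arabinoside, which kills dividing cells, for 2 days from about day 7. The compound was added at 13 days in vitro, so washout cultures were harvested at 17 days and Ro and control cultures at 15 days, and no control of 17 days was among the arrays. Nothing in the labels ties the 2 cultures of a group to separate preparations, so p-values measure only the spread between these arrays, which may be technical.

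Glycolysis splits glucose into pyruvate, which lactate dehydrogenase can turn into lactate for export. Astrocytes are known for a glycolytic metabolism, for releasing lactate and for holding most of the glycogen of the brain. The transcription factor HIF-1, made of the regulated subunit Hif1a and a constant partner, raises most glycolytic genes when oxygen is low, and the prolyl hydroxylases Egln1 and Egln3 mark Hif1a for destruction when oxygen is present. GSK-3 takes its name from its phosphorylation of glycogen synthase, the product of Gys1 in most tissues, which lowers the activity of that enzyme, and GSK-3 also marks the Wnt mediator beta-catenin for destruction.

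Values are relative intensities, the processed signal of a probe as a multiple of the 75th percentile of its array, and they compare arrays for 1 probe but not probes with each other. Each change is the log2 difference between 2 group means ± its limma standard error (n = 2 arrays per group). A gene was called when its two-sided limma p, adjusted by Benjamini-Hochberg over all features, was under 0.05. With 2 arrays on each side, p = 0.333 is the smallest that exact permutation allows, so each call rests on the spread that limma pooled over the 3 groups and over genes. Precision is limited by the number of arrays. The 75th percentile lay between 631 and 807 intensity units, each array had 60.4% to 65.2% of its probes well above background, and replicate arrays correlated across features at r = 0.992 to 0.996. Ro and control arrays shared 1 slide, washout arrays had a slide of their own, and slide, age and washout cannot be told apart in the washout comparisons. RNA was measured in bulk, so fewer cells of a type and less RNA per cell cannot be told apart.

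After 48 h of the inhibitor, 14 of the 35 genes were lower and 7 were higher in Ro than in control cultures. The lower genes included the glucose transporter Slc2a1, the lactate transporter Slc16a1, the phosphofructokinase subunit Pfkm, the lactate dehydrogenase subunit Ldhb and the oxygen sensor Egln3, and the higher genes included the enolases Eno1 and Eno2 and the hexokinase Hk2. Over all features 22.7% were called lower and 19.4% higher, so the 60% of these genes called in either direction stand beside 42.1% of all features. Since the genes were chosen with earlier results known, these shares are a description. The median change of the 35 genes was -0.06, against 0.00 for all features. In washout against Ro cultures, 14 genes were higher and 10 lower, with 21.4% of all features called higher and 20.1% called lower, and medians of -0.01 for the genes and -0.02 for all features. In washout against control cultures, 1 gene was higher and none was lower by limma, with 4.13% of all features called higher, 5.97% lower and 10.1% in either direction, and at an unadjusted p under 0.05 5 genes were higher and 6 lower. In that comparison 7 genes had both washout arrays above both control arrays and 12 had both below. Neither these counts nor the unadjusted ones were made over all features, so they are a description and show no excess. The 3 comparisons share arrays, so their values are given side by side and not as independent evidence of each other. Scaling moved the balance over all features: of the features called in washout minus Ro 51.5% were higher with the 75th percentile, against 40.5% with median centring and 38.9% in the authors' deposited value table, where the median of all features lay at -0.11 and -0.12. For washout minus control these shares were 40.9%, 30.8% and 29.1%. Among the 35 genes, 13 were higher and 13 lower in washout than in Ro with median centring, and 12 higher and 13 lower in the deposited table, so the balance of 14 to 10 was not kept under either. Changes of that size are within what scaling alone moves.

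**Figure D1:**
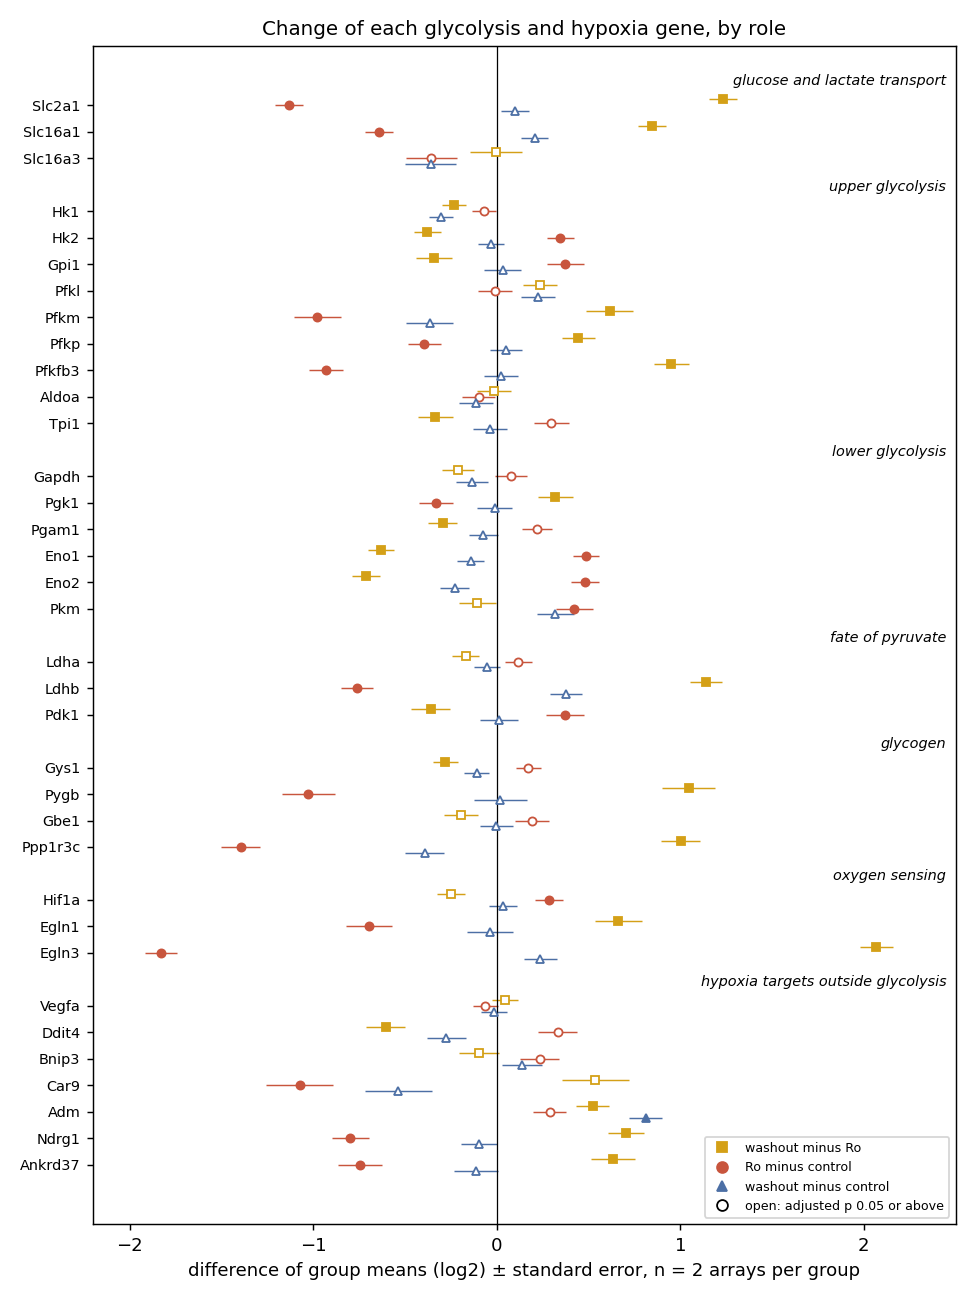
Change of each of the 35 tested genes in washout minus Ro, Ro minus control and washout minus control, on the log2 scale with the standard error, grouped by role, where filled symbols mark adjusted p under 0.05 and n is 2 arrays per group. The Ro minus control values span -1.83 (Egln3) to 0.49 (Eno1), and 1 washout minus control symbol, that of Adm, is filled.

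By the pattern of their calls, 13 genes fell in Ro, stood higher in washout than in Ro and passed no test in washout against control. They were Slc2a1, Slc16a1, Pfkm, Pfkp, Pfkfb3, Pgk1, Ldhb, Pygb, Ppp1r3c, Egln1, Egln3, Ndrg1 and Ankrd37. The opposite pattern held for 5 genes, namely Hk2, Gpi1, Eno1, Eno2 and Pdk1. A further 5 genes, Hk1, Tpi1, Pgam1, Gys1 and Ddit4, were called only as lower in washout than in Ro, and 8 genes passed in no comparison. Of the others, Pkm and Hif1a were called only as higher in Ro than in control, Car9 only as lower, and Adm as higher in washout than in either other group. These patterns were not counted over all features, so they are a description and show no excess. Of all features 42.1% were called in Ro minus control, 41.5% in washout minus Ro and 10.1% in washout minus control. A fit without 1 array leaves a group with 1 array and fewer arrays to estimate the spread. Calls can then be lost whichever array is dropped. In washout minus Ro, calls were lost without a control array although the values stayed the same, as for Gpi1 at -0.34. Calls given below as lost without an array carry this limit. Whichever array was left out, Ro minus control stayed between 0.23 (Hif1a) and 0.53 (Eno1) for the 7 genes higher in Ro. It stayed between -1.87 (Egln3) and -0.29 (Pgk1) for the 14 lower. Washout minus Ro stayed between 0.23 (Pgk1) and 2.16 (Egln3) for the 14 genes higher in washout. It stayed between -0.76 (Eno2) and -0.22 (Hk1) for the 10 lower.

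The sequence before the transcription start is shown for the 3 genes with the largest falls in Ro, which are Egln3, Ppp1r3c and Slc2a1, and for Ldha, a known HIF-1 target that passed in no comparison. HIF-1 binds elements with the core ACGTG or GCGTG, and the TCF/LEF partners of beta-catenin bind CTTTGAA or CTTTGAT. Capitals mark these letters on either strand, so that CACGT and CACGC are the reversed cores, and a CACGTG counts on both strands as overlapping matches. The sequences are from RefSeq, build GRCm38.p6, and run 5′ to 3′ over the 250 bases before the start, at chr12:54203875-54204124 on the minus strand for Egln3, chr19:36736605-36736854 on the minus strand for Ppp1r3c, chr4:119108495-119108744 on the plus strand for Slc2a1 and chr7:46845554-46845803 on the plus strand for Ldha, where of its windows the one with the most cores is shown.
Egln3: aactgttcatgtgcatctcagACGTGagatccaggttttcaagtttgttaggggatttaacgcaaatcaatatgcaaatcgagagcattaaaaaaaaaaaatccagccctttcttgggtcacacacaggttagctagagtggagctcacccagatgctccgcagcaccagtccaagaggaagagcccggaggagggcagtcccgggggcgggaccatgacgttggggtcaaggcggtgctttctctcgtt
Ppp1r3c: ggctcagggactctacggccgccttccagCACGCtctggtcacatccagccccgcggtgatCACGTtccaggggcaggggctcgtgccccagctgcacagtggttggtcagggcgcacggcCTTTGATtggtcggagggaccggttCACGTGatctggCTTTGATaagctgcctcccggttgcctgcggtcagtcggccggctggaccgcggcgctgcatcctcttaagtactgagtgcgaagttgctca
Slc2a1: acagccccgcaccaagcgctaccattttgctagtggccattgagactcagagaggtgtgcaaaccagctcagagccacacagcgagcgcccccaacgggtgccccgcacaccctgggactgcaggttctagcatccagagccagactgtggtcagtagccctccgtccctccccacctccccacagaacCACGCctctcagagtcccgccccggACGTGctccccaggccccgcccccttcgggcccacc
Ldha: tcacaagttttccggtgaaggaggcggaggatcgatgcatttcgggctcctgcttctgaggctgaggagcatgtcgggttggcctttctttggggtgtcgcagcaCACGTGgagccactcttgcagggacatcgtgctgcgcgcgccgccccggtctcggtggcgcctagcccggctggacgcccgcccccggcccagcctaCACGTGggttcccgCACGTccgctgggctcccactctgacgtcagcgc
In windows of 250 bases before to 50 after the start, which 35 of the 36 genes had in the table, Egln3 held 1 core, Slc2a1 2, Ppp1r3c 4 beside 2 CTTTGAT, and Ldha 7, of which 5 are in the stretch shown. At least 1 core was present in 13 of 13 genes lower in Ro, 5 of 7 higher and 11 of 14 not called. It was present in 85.7% of the 35 genes, in 65.4% of the 10464 tested genes with a window and in 46.7% of all 27025 genes in the table, counting a gene if any of its windows matched. The genes were chosen in part as HIF targets, so the share among them is a description. CTTTGAA or CTTTGAT was found in 3 of the 35 genes (8.6%), against 7.2% of the tested genes and 9.9% of all genes in the table. A match names letters and not a bound site.

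Of the 3 genes of glucose and lactate transport 2 fell in Ro, beside 22.7% of all features called lower. Slc2a1, which encodes the glucose transporter GLUT1, stood at 18.4 and 18.2 in washout, 7.501 and 8.104 in Ro and 17.6 and 16.6 in control cultures. Both Ro arrays lay far below the other 4, and the washout and control arrays were close, with washout slightly above. The change was -1.13 ± 0.08 in Ro minus control (adjusted p = 0.00057), a 2.19-fold lower level, 1.23 ± 0.08 in washout minus Ro (adjusted p = 0.00045) and 0.10 ± 0.08 in washout minus control (adjusted p = 0.45). Slc16a1, the transporter MCT1 that carries lactate and other monocarboxylates, stood at 34.8 and 35.7 in washout, 18.8 and 20.4 in Ro and 30.99 and 30.1 in control cultures. Its groups did not overlap, and it fell by 0.64 ± 0.07 on the log2 scale in Ro (adjusted p = 0.0028). It was 1.80-fold higher in washout than in Ro (adjusted p = 0.0011). Its other 2 probes changed by -0.95 and -0.69 in Ro and by 0.87 and 0.91 in washout minus Ro, the first of these not called (adjusted p = 0.052). Slc16a3, the low-affinity lactate exporter MCT4, stood at 0.3899 and 0.324 in washout, 0.323 and 0.394 in Ro and 0.442 and 0.472 in control cultures. Its washout and Ro arrays overlapped and both lay below control, at -0.36 ± 0.14 in Ro minus control (adjusted p = 0.1) and -0.36 ± 0.14 in washout minus control (adjusted p = 0.17), so no difference was called. The log2 ratio of Slc16a1 to Slc16a3 within an array, relative to control, was 0.42 and 0.72 on the washout arrays and -0.20 and -0.37 on the Ro arrays.

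**Figure D2:**
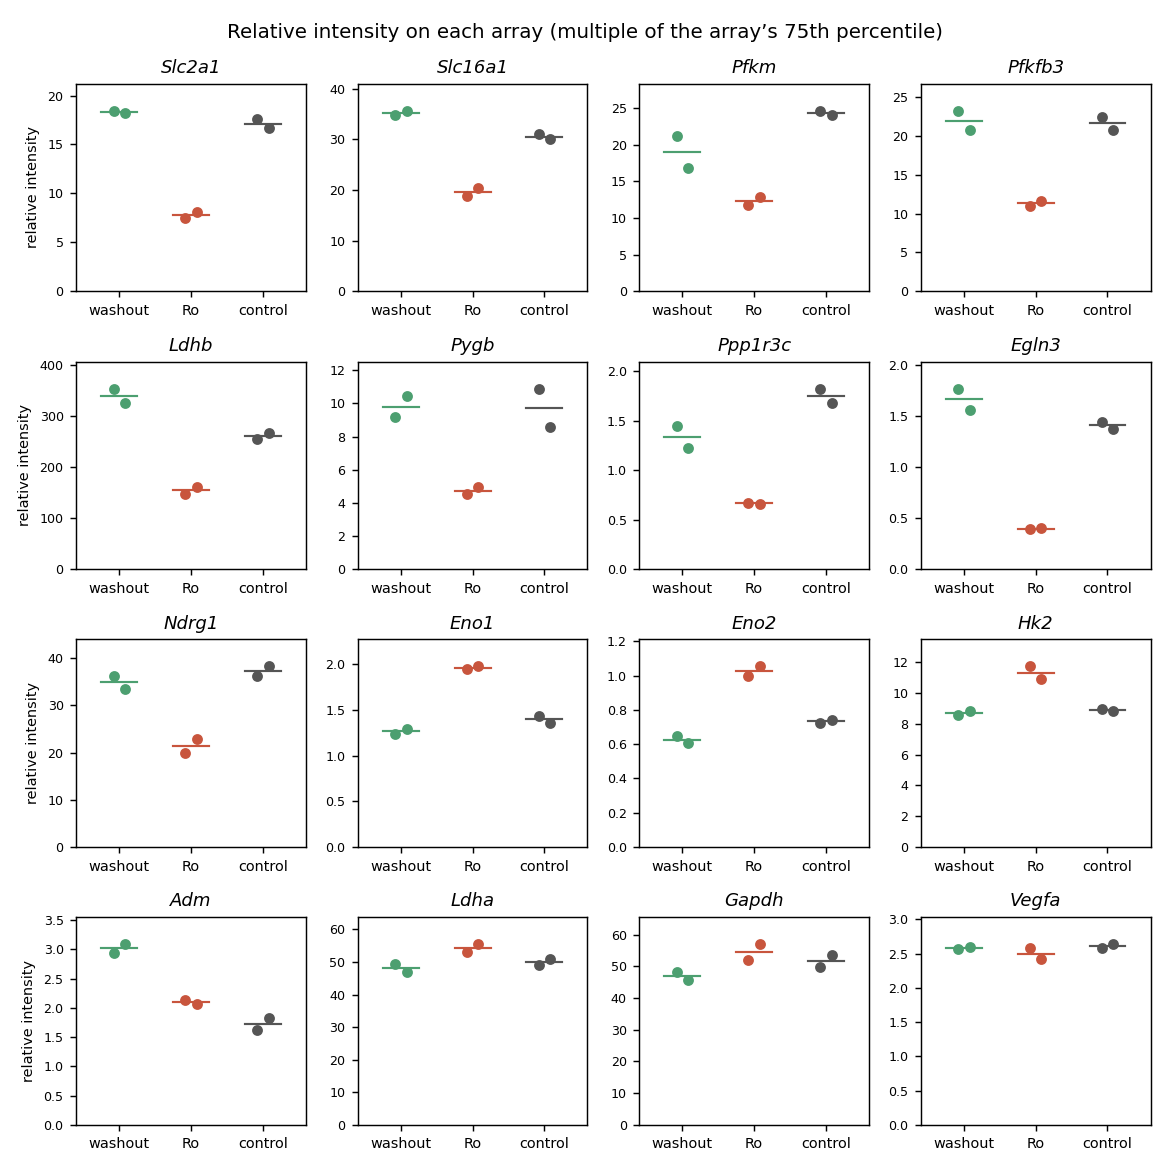
Relative intensity on each array (points) with the group mean (bars) for 16 genes in washout, Ro and control cultures, each panel starting at 0. The 9 genes from Slc2a1 to Ndrg1 are lowest on the Ro arrays, Eno1, Eno2 and Hk2 are highest there, and Adm is highest on the washout arrays, at 2.95 and 3.09.

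In the upper steps of glycolysis 3 of 9 genes were lower and 2 higher in Ro, beside 22.7% of all features called lower and 19.4% higher. Pfkm and Pfkp encode subunits of phosphofructokinase-1, the committed step, and Pfkfb3 makes fructose 2,6-bisphosphate, its activator. Pfkm stood at 21.2 and 16.9 in washout, 11.8 and 12.9 in Ro and 24.6 and 24.03 in control cultures, and no array of one group reached another. It was 1.97-fold lower in Ro than in control (adjusted p = 0.0039) and 1.53-fold higher in washout than in Ro (adjusted p = 0.016). Washout arrays stayed below both control arrays, at -0.36 ± 0.13, which was not called (adjusted p = 0.14). Pfkfb3 stood at 23.3 and 20.7 in washout, 11.04 and 11.7 in Ro and 22.5 and 20.8 in control cultures, so washout and control overlapped and both Ro arrays lay well below them. Its change was -0.93 ± 0.09 in Ro minus control (adjusted p = 0.0017) and 0.95 ± 0.09 in washout minus Ro (adjusted p = 0.0015), and its other 2 probes changed by -1.20 and -0.99 in Ro minus control. Pfkp stood at 18.98 and 20.1 in washout, 13.5 and 15.2 in Ro and 18.4 and 19.3 in control cultures. Its change was smaller, at -0.39 ± 0.09 in Ro minus control (adjusted p = 0.021) and 0.44 ± 0.09 in washout minus Ro (adjusted p = 0.014), while its second probe gave -0.79 and 0.81. The third subunit, Pfkl, passed in no comparison, with levels between 1.43 and 1.86 over the 6 arrays and -0.01 ± 0.09 in Ro minus control (adjusted p = 0.93). Within an array, the log2 ratio of Pfkm to Pfkl relative to control was -0.51 and -0.67 on the washout arrays and -0.97 on both Ro arrays, so the subunits changed unequally, although 2 against 2 arrays leave an exact p of 0.333.

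Hexokinases phosphorylate glucose on entry. Hk2, the inducible form, stood at 8.59 and 8.82 in washout, 11.7 and 10.9 in Ro and 8.96 and 8.81 in control cultures. Both Ro arrays lay above all others, by 0.35 ± 0.07 over control (adjusted p = 0.017), and washout was lower than Ro, at -0.38 ± 0.07 (adjusted p = 0.013). Hk1, the form common in brain, stood at 0.404 and 0.411 in washout, 0.478 and 0.4799 in Ro and 0.511 and 0.494 in control cultures. It was called only in washout minus Ro, at -0.23 ± 0.07 (adjusted p = 0.042), and its other 3 probes ranged from -0.28 to -0.05 in that comparison without a call, while 1 of them was called in Ro minus control, at -0.26 (adjusted p = 0.037). Gpi1, which turns glucose 6-phosphate into fructose 6-phosphate, stood at 77.1 and 67.6 in washout, 87.2 and 96.05 in Ro and 69.4 and 71.9 in control cultures. Ro lay above both other groups, which overlapped, at 0.37 ± 0.10 over control (adjusted p = 0.034), and washout minus Ro was -0.34 ± 0.10 (adjusted p = 0.044). Tpi1, which interconverts the triose phosphates, stood at 34.8 and 30.6 in washout, 39.6 and 42.8 in Ro and 33.8 and 33.2 in control cultures. The Ro arrays were the highest for Tpi1 as well, with Ro minus control at 0.30 ± 0.09 (adjusted p = 0.056) and washout minus Ro at -0.34 ± 0.09 (adjusted p = 0.04). Under quantile normalisation, median centring and in the deposited table, Tpi1 was called higher in Ro than in control. Aldoa, the aldolase that splits fructose 1,6-bisphosphate, lay between 239.6 and 279 on all arrays and passed in no comparison.

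Among these 9 genes, Pfkm and Pfkfb3 were called lower in Ro under all alternatives except the 2-fold minimum, which neither reached in Ro. The calls of Hk2 and Gpi1 in Ro were lost when control 1, control 2, Ro 1 or Ro 2 was left out, with adjusted p up to 0.119 and 0.165, and that of Pfkp without control 1, control 2 or Ro 1, with adjusted p up to 0.121. In washout minus Ro, the calls of Hk2 and Pfkm were lost without Ro 1 or Ro 2, that of Pfkp without Ro 1 or washout 2, those of Gpi1 and Tpi1 when any single array but washout 1 was left out, and that of Hk1 whichever array was left out. The only probes of Hk2, Pfkm and Tpi1 touched a region of raised dim spots on an array, and these genes have no value without such spots. With no filter on dim probes the calls of Hk2, Gpi1 and Pfkp in Ro and of Gpi1, Tpi1, Hk1 and Pfkm in washout minus Ro were lost, and the deposited table lost both calls of Pfkp. The replicate block lost both calls of Gpi1 and the washout minus Ro calls of Tpi1 and Hk1, and normexp lost those of Tpi1 and Hk1. Hk1 lost its call with the mean of its probes as well, and Gpi1 was at -0.22 in washout minus Ro under quantile normalisation (adjusted p = 0.0609).

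In the lower steps of glycolysis 3 of 6 genes were higher and 1 was lower in Ro, beside 19.4% of all features called higher and 22.7% lower, and the difference from the upper steps was not tested. Eno1 and Eno2 encode enolases, the ubiquitous and the neuronal form, which make phosphoenolpyruvate. Eno1 stood at 1.24 and 1.29 in washout, 1.94 and 1.98 in Ro and 1.44 and 1.36 in control cultures. Its 3 groups did not overlap, and it was 1.40-fold higher in Ro than in control (0.49 ± 0.07, adjusted p = 0.0056) and 1.55-fold lower in washout than in Ro (-0.63 ± 0.07, adjusted p = 0.0024). Eno2 stood at 0.649 and 0.604 in washout, 0.999 and 1.05 in Ro and 0.726 and 0.744 in control cultures. The Ro arrays were again the highest, at 0.48 ± 0.08 over control (adjusted p = 0.0072) and with washout minus Ro at -0.71 ± 0.08 (adjusted p = 0.002), and a second probe of Eno2 gave 0.44 and -0.80. Pkm, pyruvate kinase, stood at 7.48 and 6.45 in washout, 7.16 and 7.81 in Ro and 5.65 and 5.505 in control cultures. It rose in Ro by 0.42 ± 0.10 (adjusted p = 0.026), and the washout arrays, which overlapped with Ro, lay above control by 0.32 ± 0.10 without a call (adjusted p = 0.12). Pgk1, phosphoglycerate kinase, stood at 77.3 and 67.9 in washout, 56.9 and 59.2 in Ro and 75.4 and 70.9 in control cultures. It was the member of this group that fell in Ro, by 0.33 ± 0.09 on the log2 scale (adjusted p = 0.04), and washout minus Ro was 0.32 ± 0.09 (adjusted p = 0.045), while its second probe gave -0.28 and 0.26 without a call.

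Pgam1, phosphoglycerate mutase, stood at 52.4 and 48.5 in washout, 59.8 and 63.99 in Ro and 53.1 and 53.1 in control cultures. It was called in washout minus Ro, at -0.29 ± 0.08 (adjusted p = 0.036), and not in Ro minus control, at 0.22 ± 0.08 (adjusted p = 0.08). Gapdh, glyceraldehyde-3-phosphate dehydrogenase and a common reference for normalisation, stood at 48.4 and 45.8 in washout, 52.03 and 56.9 in Ro and 49.8 and 53.5 in control cultures. Its Ro and control arrays overlapped, the 3 changes lay between -0.21 and 0.08, and none was called, although the Ro minus control value turned to -0.01 under quantile normalisation and washout minus Ro was called lower under median centring and in the deposited table. Eno1 was called in Ro and in washout minus Ro under all alternatives except the 2-fold minimum, and Eno2 lost its call in Ro without Ro 2 (adjusted p = 0.0553). Pkm and Pgk1 lost their calls in Ro when control 1, control 2, Ro 1 or Ro 2 was left out, with adjusted p up to 0.129 and 0.18. In washout minus Ro, Pgk1 lost its call when any single array but washout 2 was left out, and Pgam1 when any but washout 1 was. Of the 4 calls in Ro minus control in this group, that of Eno1 alone was kept in every fit without 1 array. Pgk1 also lost both calls under median centring, in the deposited table, with the mean of its probes, with no filter on dim probes and with the replicate block, and Pkm lost its call with no filter and with the block. Pgam1 was at -0.16 in washout minus Ro under quantile normalisation (adjusted p = 0.112), and lost that call also with normexp, with no filter and with the block.

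At the fate of pyruvate, the subunits of lactate dehydrogenase differed. Ldhb, the subunit that favours lactate use, stood at 354 and 327 in washout, 147 and 162 in Ro and 256 and 268 in control cultures. No array of one group reached another, with Ro lowest and washout highest. Ldhb fell by 0.76 ± 0.09 on the log2 scale in Ro (adjusted p = 0.0026) and was 2.21-fold higher in washout than in Ro (adjusted p = 0.00073), and washout minus control was 0.38 ± 0.09 (adjusted p = 0.062). Ldha, the subunit that favours lactate production, stood at 49.4 and 47 in washout, 53.1 and 55.4 in Ro and 49.01 and 51.03 in control cultures. Ldha was highest in Ro by a narrow margin, at 0.12 ± 0.07 over control (adjusted p = 0.25), and its second probe gave 0.11. Washout minus Ro was -0.17 ± 0.07 for Ldha (adjusted p = 0.12), and was called lower under median centring and in the deposited table. The log2 ratio of Ldhb to Ldha within an array, relative to control, was 0.45 and 0.41 on the washout arrays and -0.92 and -0.84 on the Ro arrays, with an exact p of 0.333, the smallest possible. Pdk1, a kinase that switches off pyruvate dehydrogenase and so keeps pyruvate from the mitochondrial cycle, stood at 0.577 and 0.594 in washout, 0.742 and 0.762 in Ro and 0.531 and 0.633 in control cultures. Its Ro arrays lay above the others, which overlapped, at 0.37 ± 0.10 over control (adjusted p = 0.039) and with washout minus Ro at -0.36 ± 0.10 (adjusted p = 0.044). The Pdk1 calls were lost in several fits, among them those without Ro 1, Ro 2, washout 1 or washout 2 in both comparisons and without control 1 in Ro minus control, with adjusted p up to 0.156 in Ro minus control and 0.172 in washout minus Ro. Without control 1 the Ro minus control value of Pdk1 was 0.25, and both calls were lost with no filter on dim probes and with the replicate block.

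**Figure D3:**
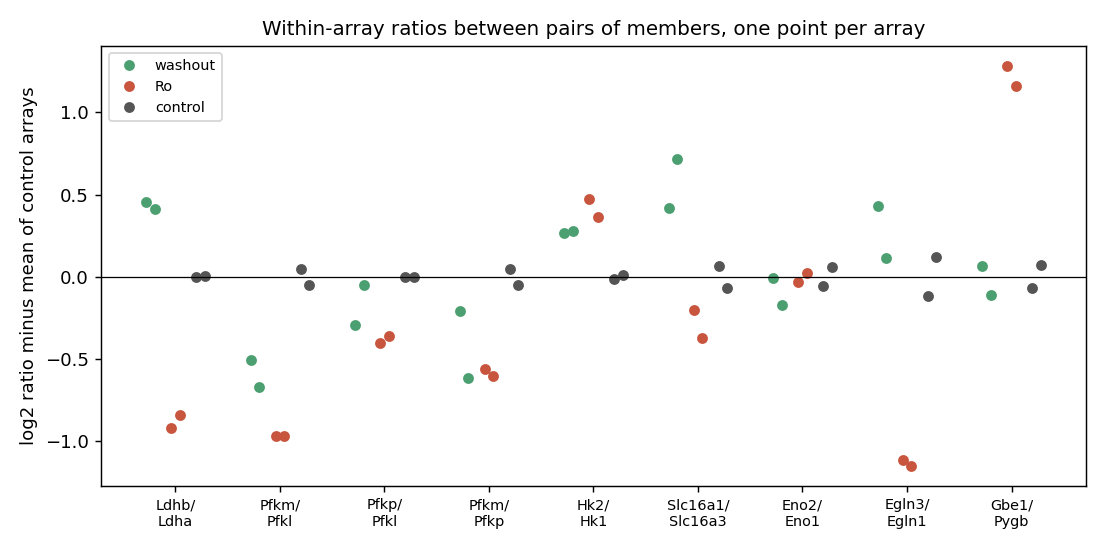
Log2 ratio between pairs of genes on each array, minus the mean of the control arrays, with washout, Ro and control points for each pair. The Ldhb to Ldha points lie at 0.45 and 0.41 in washout and at -0.92 and -0.84 in Ro, and the Gbe1 to Pygb points lie at 1.28 and 1.16 in Ro.

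Among the glycogen genes, 2 of 4 tested fell in Ro and none rose by limma, also at an unadjusted p under 0.05. Over all features 22.7% were called lower and 19.4% higher in Ro. Ppp1r3c encodes PTG, the subunit that brings protein phosphatase 1 to glycogen, where it activates glycogen synthase. Ppp1r3c stood at 1.45 and 1.22 in washout, 0.6704 and 0.658 in Ro and 1.82 and 1.67 in control cultures, with the 3 groups apart. It was 2.63-fold lower in Ro than in control (-1.40 ± 0.11, adjusted p = 8e-04) and 2.00-fold higher in washout than in Ro (adjusted p = 0.002), and washout minus control was -0.39 ± 0.11 (adjusted p = 0.088). A second, more variable probe gave -1.66 in Ro minus control (adjusted p = 0.016) and 0.87 in washout minus Ro, not called (adjusted p = 0.098). Pygb, the brain form of glycogen phosphorylase, which releases glucose units from glycogen, stood at 9.19 and 10.4 in washout, 4.54 and 4.94 in Ro and 10.9 and 8.56 in control cultures. Both Ro arrays lay below the rest, at -1.03 ± 0.14 against control (adjusted p = 0.0048), washout minus Ro was 1.05 ± 0.14 (adjusted p = 0.0045), and washout and control overlapped. Its second probe gave -1.01 and 1.00. Gys1, glycogen synthase itself, stood at 0.265 and 0.269 in washout, 0.318 and 0.332 in Ro and 0.285 and 0.291 in control cultures. Its messenger was highest in Ro, but Ro minus control, at 0.17 ± 0.07, was not called (adjusted p = 0.1), and washout minus Ro was -0.28 ± 0.07 (adjusted p = 0.026), a call lost without Ro 1, Ro 2, washout 1 or washout 2. The Gys1 call was lost with no filter on dim probes, with the replicate block and with normexp, which gave -0.17 (adjusted p = 0.158). Gbe1, the branching enzyme, lay between 7.66 and 9.41 over the arrays and passed in no comparison, with 0.19 ± 0.09 in Ro minus control (adjusted p = 0.15). The arrays measure messenger level, so the phosphorylation state of glycogen synthase, which GSK-3 sets, is outside these data.

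Oxygen sensing held the member with the largest change. Egln3, the prolyl hydroxylase PHD3, itself a known HIF-1 target, stood at 1.77 and 1.56 in washout, 0.392 and 0.402 in Ro and 1.45 and 1.38 in control cultures. The Ro arrays lay far below the rest, and washout lay above control on both arrays. Egln3 was 3.56-fold lower in Ro than in control (-1.83 ± 0.09, adjusted p = 0.00025) and 4.19-fold higher in washout than in Ro (2.07 ± 0.09, adjusted p = 0.00021), and washout minus control was 0.24 ± 0.09 (adjusted p = 0.16). Egln1, the main oxygen sensor PHD2, stood at 1.93 and 2.12 in washout, 1.24 and 1.31 in Ro and 2.304 and 1.86 in control cultures. It fell less, with the Ro arrays below both overlapping groups, at -0.70 ± 0.13 (adjusted p = 0.011) and 0.66 ± 0.13 in washout minus Ro (adjusted p = 0.012), and a second probe gave -0.63 and 0.53, with no call in washout minus Ro (adjusted p = 0.051). Hif1a, the regulated HIF-1 subunit, stood at 1.35 and 1.301 in washout, 1.64 and 1.51 in Ro and 1.31 and 1.28 in control cultures. Its messenger was slightly higher in Ro, by 0.28 ± 0.08 (adjusted p = 0.035), and protein was not measured. Washout minus Ro was -0.25 ± 0.08 for Hif1a (adjusted p = 0.051). It was called lower under quantile normalisation, median centring and in the deposited table. The Egln3 calls held under all alternatives, Egln1 lost its call in Ro without Ro 1 (adjusted p = 0.0636) and in washout minus Ro without Ro 1 or Ro 2 (up to 0.0699), and Hif1a lost its call when control 1, control 2, Ro 1 or Ro 2 was left out (adjusted p up to 0.201), with no filter on dim probes and with the replicate block.

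Of the hypoxia targets outside glycolysis 3 of 7 were lower in Ro and none higher by limma (2 higher at an unadjusted p under 0.05). Over all features 22.7% were called lower and 19.4% higher. Ndrg1, a target linked to differentiation and stress, stood at 36.4 and 33.5 in washout, 20.01 and 22.98 in Ro and 36.3 and 38.3 in control cultures. Its Ro arrays lay below the rest, at -0.80 ± 0.10 (adjusted p = 0.0033), and washout minus Ro was 0.70 ± 0.10 (adjusted p = 0.0048). Car9, the cell-surface carbonic anhydrase IX and a widely used hypoxia marker, stood at 0.1303 and 0.136 in washout, 0.111 and 0.0763 in Ro and 0.187 and 0.2003 in control cultures. Both Ro and washout lay below control, at -1.07 ± 0.18 in Ro (adjusted p = 0.0091), while washout minus Ro was 0.54 ± 0.18 (adjusted p = 0.07) and washout minus control -0.54 ± 0.18 (adjusted p = 0.14). Ankrd37, a HIF-1 target with an ankyrin repeat, stood at 0.08596 and 0.0691 in washout, 0.0486 and 0.0509 in Ro and 0.085 and 0.0817 in control cultures. Its Ro arrays lay below the rest, and it fell in Ro by 0.75 ± 0.12 on the log2 scale (adjusted p = 0.0077), with washout minus Ro at 0.63 ± 0.12 (adjusted p = 0.013), a call lost without Ro 1 or Ro 2. With normexp background correction its values were smaller, -0.39 in Ro minus control, still called, and 0.30 in washout minus Ro, not called (adjusted p = 0.0508), and Car9 in Ro minus control was -0.66, still called.

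Adm, which encodes the vasodilator peptide adrenomedullin, was the 1 gene of the 35 called in washout minus control and stood at 2.95 and 3.09 in washout, 2.13 and 2.06 in Ro and 1.62 and 1.83 in control cultures. The 3 groups did not overlap, with washout highest and control lowest. Washout minus control was 0.81 ± 0.09 (adjusted p = 0.013), a 1.75-fold higher level, and washout minus Ro was 0.52 ± 0.09 (adjusted p = 0.0087). Ro minus control was 0.29 ± 0.09 (adjusted p = 0.053), and was called higher under median centring and in the deposited table. The washout minus control call was lost without control 1 (adjusted p = 0.0542), without control 2 (adjusted p = 0.0538) and with no filter on dim probes (adjusted p = 0.0636), and the washout minus Ro call without Ro 2 (adjusted p = 0.0584). Ddit4, an inhibitor of the growth kinase complex mTORC1 induced by hypoxia and other stress, stood at 29.4 and 26.96 in washout, 42.7 and 42.9 in Ro and 37.02 and 31.3 in control cultures. Its Ro arrays were the highest, with washout minus Ro at -0.61 ± 0.11 (adjusted p = 0.0097), a call lost without Ro 1 or Ro 2, and Ro minus control at 0.33 ± 0.11 (adjusted p = 0.059). Vegfa, the angiogenic growth factor that is a textbook HIF-1 target, stood at 2.56 and 2.6 in washout, 2.57 and 2.43 in Ro and 2.58 and 2.63 in control cultures. These levels were nearly equal, with Ro minus control at -0.06 ± 0.07 (adjusted p = 0.52), and its other 3 probes ranged from -0.19 to 0.13. A Vegfa probe with 10 spots was called in washout minus Ro, at -0.29 (adjusted p = 0.031), while the probe used gave 0.05 ± 0.07. Bnip3, which promotes removal of mitochondria, lay between 2.72 and 3.63 and passed in no comparison.

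The remaining genes of these pathways were read from lists chosen by name, also with earlier results of these data known. Their shares beside those of all features are therefore a description. Of 41 other tested genes of glycolysis and glucose use, 19 were lower and 7 higher in Ro, 17 were higher and 6 lower in washout than in Ro, and 1 was higher and 3 lower in washout than in control. Their median Ro minus control change was -0.33, against 0.00 for all features. In Ro 46.3% of them were lower and 17.1% higher, beside 22.7% and 19.4% of all features. In washout minus Ro 41.5% were higher and 14.6% lower, beside 21.4% and 20.1% of all features. For washout minus control the shares were 2.44% higher and 7.32% lower, beside 4.13% and 5.97%. Slc2a4, the insulin-responsive glucose transporter GLUT4, stood at 1.35 and 1.21 in washout, 0.389 and 0.443 in Ro and 1.66 and 1.62 in control cultures, with Ro minus control at -1.98 ± 0.10 (adjusted p = 0.00028). Gpd1, glycerol-3-phosphate dehydrogenase, stood at 5.68 and 4.99 in washout, 1.65 and 1.84 in Ro and 6.21 and 6.25 in control cultures, with Ro minus control at -1.84 ± 0.10 (adjusted p = 0.00032). Both fell about as far as Egln3. Pcx, pyruvate carboxylase, through which astrocytes replenish the mitochondrial cycle, stood at 32.02 and 29.5 in washout, 9.74 and 11.03 in Ro and 26.4 and 26.2 in control cultures, with Ro minus control at -1.34 ± 0.09 (adjusted p = 6e-04). Hkdc1, a hexokinase-like gene, was dim and changed by -1.28 ± 0.23 in Ro (adjusted p = 0.01), being well above background on 1 of 2 Ro arrays. Pdk4, which like Pdk1 switches off pyruvate dehydrogenase, moved the other way and stood at 2.39 and 2.52 in washout, 7.24 and 7.07 in Ro and 3.87 and 3.63 in control cultures. It was lower in washout than in Ro, at -1.54 ± 0.07 (adjusted p = 0.00026), and lower than in control, at -0.61 ± 0.07 (adjusted p = 0.016). In washout minus control, Slc16a6, a monocarboxylate transporter, was at -0.75 ± 0.11 and Pgam2, the muscle mutase, at -0.58 ± 0.11, both lower, and Pfkfb2, a relative of Pfkfb3, at 0.60 ± 0.07, higher (adjusted p = 0.023, 0.038 and 0.013).

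Of 18 other tested glycogen genes, 6 were lower and 1 higher in Ro, and 8 were higher and 3 lower in washout than in Ro. Against control, 1 was higher and 1 lower in washout. Over all features 22.7% were called lower and 19.4% higher in Ro, and 21.4% higher and 20.1% lower in washout than in Ro. For washout minus control these shares were 4.13% higher and 5.97% lower. Ugp2, which makes the UDP-glucose used by glycogen synthase, stood at 9.84 and 8.28 in washout, 3.98 and 4.204 in Ro and 10.7 and 10.4 in control cultures, with Ro minus control at -1.37 ± 0.10 (adjusted p = 8e-04). Phkg1, a catalytic subunit of the kinase that activates glycogen phosphorylase, stood at 0.602 and 0.539 in washout, 0.165 and 0.173 in Ro and 0.445 and 0.4395 in control cultures, with Ro minus control at -1.39 ± 0.09 (adjusted p = 0.00043). Genes of both synthesis and breakdown were thus among the lower genes. Ppp1r3d, a relative of Ppp1r3c, fell by 1.04 ± 0.09 in Ro on the log2 scale and was below control in washout, at -0.50 ± 0.09 (adjusted p = 0.001 and 0.034). Gys2, the liver form of glycogen synthase, was well above background on both control arrays, 1 washout array and neither Ro array. Its Ro level was at least 1.35-fold lower than control, and washout was at least 1.97-fold higher than Ro. These bounds were not tested, since the limma calls used the Ro signal below background. Prkag2, a regulatory subunit of the energy-sensing kinase AMPK, changed by 0.80 ± 0.10 in washout minus Ro, and Ppp1r3f by 0.37 ± 0.07 in washout minus control (adjusted p = 0.0028 and 0.046).

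**Figure D4:**
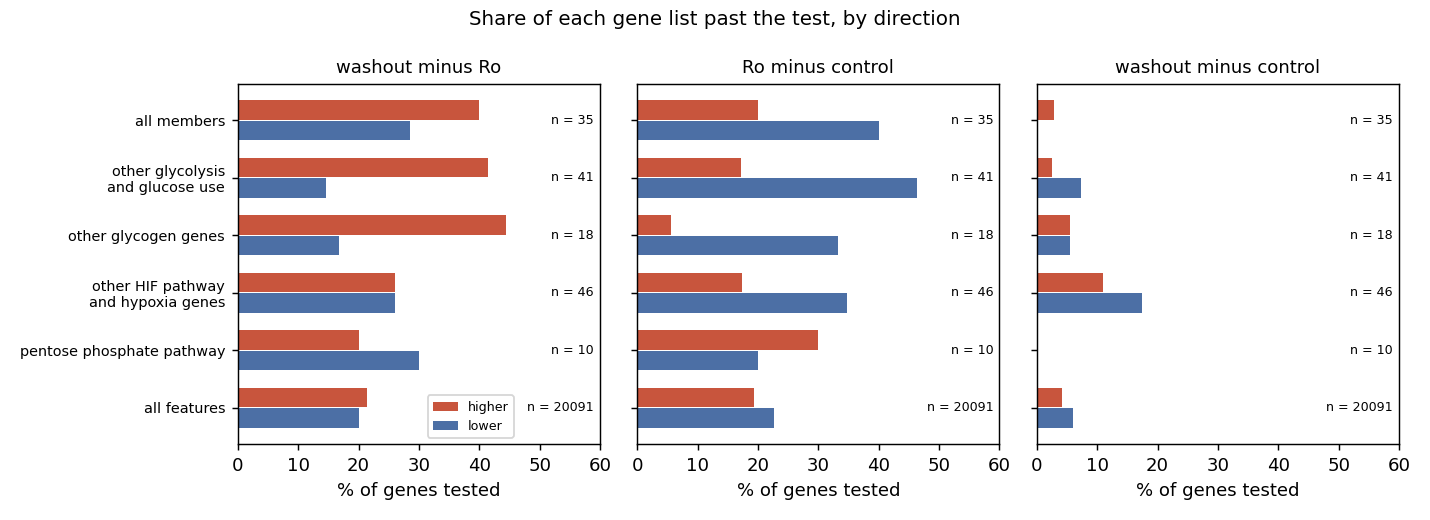
Percentage of tested genes called higher or lower in washout minus Ro, Ro minus control and washout minus control, for the 35 genes, the other pathway lists and all 20091 features, with the number tested beside each pair of bars. In Ro minus control the lower bars stand at 40.0% for the 35 genes, 46.3% for other glycolysis genes and 22.7% for all features.

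Of 46 other tested genes of the HIF pathway and hypoxia response, 16 were lower and 8 higher in Ro, 12 were higher and 12 lower in washout than in Ro, and 5 were higher and 8 lower in washout than in control. Tfrc, the transferrin receptor, stood at 0.4302 and 0.386 in washout, 1.18 and 1.11 in Ro and 0.341 and 0.3395 in control cultures, with Ro minus control at 1.75 ± 0.09 (adjusted p = 0.00025). Cxcr4, a chemokine receptor, changed by 1.35 ± 0.08 in Ro, whereas its ligand Cxcl12 changed by -1.43 ± 0.08 (adjusted p = 0.00043 and 0.00033). Nos3, the endothelial nitric oxide synthase, changed by -1.60 ± 0.10 in Ro (adjusted p = 0.00044). In Ro 34.8% of these 46 genes were called lower and 17.4% higher, beside 22.7% and 19.4% of all features. In washout minus Ro 26.1% were called in each direction, beside 21.4% higher and 20.1% lower of all features. For washout minus control the shares were 10.9% higher and 17.4% lower, beside 4.13% and 5.97%. Vldlr, a lipoprotein receptor, stood at 1.43 and 1.47 in washout, 5.47 and 4.65 in Ro and 2.2 and 2.28 in control cultures, with washout minus Ro at -1.80 ± 0.10 (adjusted p = 0.00033). As with Adm, washout was above control for Edn1, the vasoconstrictor endothelin-1, at 1.02 ± 0.07, and for the transcriptional repressor Bhlhe40, at 0.90 ± 0.07 (adjusted p = 0.0066 and 0.0077). Edn1 stood at 0.231 and 0.233 in washout, 0.104 and 0.109 in Ro and 0.111 and 0.118 in control cultures, so its Ro and control levels were close and washout lay well above both. Zfp395 was below control in washout, at -0.92 ± 0.11 (adjusted p = 0.014). Tgfa, a growth factor, was not well above background on either washout array. Its washout level was at least 2.0-fold lower than in Ro and at least 1.57-fold lower than in control. These bounds were not tested, since the limma calls used the washout signal below background.

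Of 10 tested genes of the pentose phosphate pathway, which branches from glycolysis to make NADPH and ribose, 3 were higher and 2 lower in Ro. In washout 2 were higher and 3 lower than in Ro. None was called in washout against control by limma, with 0 also at an unadjusted p under 0.05. Over all features 19.4% were called higher and 22.7% lower in Ro, and 21.4% higher and 20.1% lower in washout than in Ro. Prps2, which makes the ribose donor for nucleotides, stood at 0.633 and 0.74 in washout, 1.36 and 1.38 in Ro and 0.716 and 0.695 in control cultures, with Ro minus control at 0.96 ± 0.10 (adjusted p = 0.0017). Its relative Prps1 went the other way, at -0.35 ± 0.09 in Ro minus control (adjusted p = 0.033). H6pd, the pathway's first enzyme in the endoplasmic reticulum, changed by -0.78 ± 0.10 and Pgd, its cytosolic dehydrogenase of the later step, by 0.36 ± 0.09 (adjusted p = 0.0036 and 0.03). Rpe, an epimerase of pentose phosphates, changed by -0.37 ± 0.07 in washout minus Ro (adjusted p = 0.012).

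Levels of several sets of cell type markers also differed between the groups, not all in the same direction. Over all features 22.7% were called lower and 19.4% higher in Ro, and 21.4% higher in washout than in Ro. All 15 astrocyte markers were kept, and their mean log2 level was 2.98 to 2.99 in washout, 2.63 to 2.70 in Ro and 3.02 to 3.09 in control cultures, with 9 lower and 3 higher in Ro. Of 15 microglial markers 13 were kept (P2ry12 and Cd68 were not), and their mean was -0.48 to -0.42 in washout, -1.14 to -0.91 in Ro and -0.37 to -0.31 in control cultures, with 7 lower and 1 higher in Ro. Of 9 ependymal markers 7 were kept (Tmem212 and Dnah12 were not), and their mean was 2.11 to 2.14 in washout, 0.33 to 0.52 in Ro and 1.77 to 1.89 in control cultures, with 7 of 7 lower in Ro and 7 of 7 higher in washout than in Ro. Pericyte and smooth muscle markers averaged 0.83 to 0.94 in washout, 0.40 to 0.57 in Ro and 1.31 to 1.38 in control cultures over 7 of 9 markers (Abcc9 and Des were not kept). Meningeal fibroblast markers averaged -0.89 to -0.88 in washout, -0.53 to -0.51 in Ro and 0.05 to 0.24 in control cultures over 11 of 12 markers (Slc22a6 was not kept). Oligodendrocyte precursor markers averaged -0.37 to -0.29 in washout, -0.91 in Ro and 0.10 to 0.18 in control cultures over 5 of 7 markers (Sox10 and Gpr17 were not kept). In Ro, 5 pericyte and smooth muscle markers were called lower and 1 higher. For meningeal markers these counts were 7 and 2, and for precursor markers 4 and 1. Cspg4 was in the pericyte and precursor lists and Pdgfra in the meningeal and precursor lists, so these means are not separate. Endothelial markers averaged -3.10 to -2.92 in washout, -2.30 to -2.26 in Ro and -2.69 to -2.51 in control cultures over 4 of 8 markers, and the defining Pecam1, Cdh5 and Cldn5 were not kept, nor was Tek. Of these 4, 1 was higher and 2 lower in Ro, with Kdr at 3.11 in Ro minus control. Emcn, called lower, was well above background on the control arrays only, so no size is given for its fall. It entered the Ro and washout means with signal below background. Neuronal markers averaged -1.57 to -1.27 in washout, -1.41 to -1.36 in Ro and -1.39 to -1.28 in control cultures over 7 of 9 markers (Snap25 and Slc17a7 were not kept). These means were close although 2 markers were higher and 4 lower in Ro, among them Stmn2 at -2.22 and Gad1 at 2.29. Of 7 oligodendrocyte markers 5 were kept (Mog and Opalin were not). Per the labels fewer than 1% of cells carried the microglial protein Iba1 at 12 days. The part of these cell types in the changes of the glycolysis and hypoxia genes was not tested.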

How the data were processed

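RNA of 6 astrocyte cultures (2 each of washout, Ro and control) was hybridised to one-colour Agilent arrays. Per the file headers, the deposited scanner files hold the background-corrected processed signal as an intensity, from Feature Extraction 10.5.1.1 (10.1 per the submitters' processing notes), beside other columns of deposited flags for spots well above background and outlier spots. The deposited value table of the whole series holds the authors' normalized ratio per probe. Its centring rule is not given in the sources used here, its column medians were 0.872 to 0.987, and its log2 values, centred per probe, correlated with the scanner values at r = 0.993 or more.

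The log2 processed signal was set relative to the 75th percentile of each array. Spots of a probe were averaged without outlier-flagged spots, which left 41068 probes, of which 61.0% were named by matching their accession to the RefSeq gene table (GRCm38.p6). The file headers name mm9, so no probe coordinates are given. A probe was kept where both arrays of any 1 group flagged it as well above background, and the brightest probe stood for a gene, giving 20091 features. limma 3.58.1 in R 4.3.3 fitted 1 mean per group over all 6 arrays (residual df 3, prior df 2.09), with Benjamini-Hochberg adjustment over all features and a threshold of 0.05. The fit was tested on simulated data. Plots used matplotlib 3.10.9 (Python 3.11.15).

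The 36 genes and all lists were chosen with earlier results of these data known. Every gene passing in at least 1 comparison is described, with Gapdh, Ldha, Vegfa and others by name, and at most 4 genes per other list and comparison, those with the largest called change. Levels below background in 1 group are given as bounds against the higher of the array's lowest well-measured signal and the probe's own signal. Probe sequences were not used, so binding to related transcripts was not checked. Same-numbered arrays did not deviate together (correlations -0.12, 0.08 and -0.11), so the numbers do not pair the samples. Alternatives covered background correction, scaling, the deposited table, dim-probe filters, the variance model, probe choice, slide, replicate block, single arrays and a fold minimum. The level of the oligodendrocyte markers is not reported here.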

Additional observations from a re-analysis of the deposited data

How the results depend on the processing

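With 2 arrays per group, calls near the threshold moved in fits without 1 array, which leave a group with 1 array. Car9 had the largest standard error of the 35 genes, 0.184. Under all alternatives except a 2-fold minimum, 11 genes remained called lower and 1 higher in Ro, and 8 higher and 2 lower in washout minus Ro. The 2-fold minimum left 5 genes in Ro minus control (0 higher, 5 lower), 5 in washout minus Ro (5 higher, 0 lower) and 0 in washout minus control (0 higher). Without a filter on dim probes 2 genes were higher in Ro, 4 lower in washout than in Ro and 0 called in washout minus control (0 higher). With trend and robust variances 11 were higher in Ro and 5 were called in washout minus control (3 higher, 2 lower). With normexp on median signals 6 were lower in washout than in Ro and 2 called, 2 higher, in washout minus control. With probes well above background on all 6 arrays 3 were called in washout minus control (2 higher, 1 lower). With only the arrays of the groups compared 6 were lower in washout than in Ro. The replicate block gave 3 higher in Ro and 4 lower in washout than in Ro, 13 lower in Ro and 13 higher in washout than in Ro, and 1 call in washout minus control. Exchanging the Ro numbers in the block, chosen after seeing the data, gave 9 higher and 14 lower, 14 higher and 8 lower, and 1 higher. Leaving out single arrays gave 13 to 21 calls in Ro minus control (1 to 7 higher, 11 to 14 lower), 11 to 20 in washout minus Ro (9 to 13 higher, 2 to 7 lower) and 0 to 1 in washout minus control (0 to 1 higher, 0 to 0 lower). Over all features, washout minus control had 829 higher and 1199 lower calls, against 1327 and 1525 with trend and robust variances, 297 and 469 with the block, 316 and 441 with only those groups' arrays and 63 and 78 without a filter. Ro minus control had 3897 higher calls, against 4458 with trend and robust variances, 3057 with the block and 2479 of 32589 features without a filter. Washout minus Ro had 4039 lower calls, against 3482 with normexp, 3271 with the block and 2667 without a filter. In these settings the counts over all features moved in the same direction as those of the described genes. Leaving out regions of raised dim spots, also chosen after seeing the data, gave 6 higher and 13 lower in Ro among 32 genes. A fit within 1 slide was possible only for Ro minus control. The cause of these shifts was not tested.

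All reversed signs were of uncalled values. In Ro minus control Gapdh was -0.0080 under quantile normalisation, and Pfkl 0.041 with normexp, 0.00063 with quantile normalisation, 0.031 with median centring, 0.032 in the deposited table and -0.073 to 0.051 without single arrays. In washout minus Ro Aldoa was 0.080 with quantile normalisation, 0.013 as a mean of probes and -0.103 to 0.074 without single arrays, Vegfa -0.045, -0.059 and -0.172 with median centring, the deposited table and the mean of probes, Pkm -0.212 to 0.00084 and Slc16a3 -0.148 to 0.137 without single arrays. In washout minus control, median centring and the deposited table gave Gpi1 -0.017 and -0.030, Hif1a -0.015 and -0.027, Pdk1 -0.035 and -0.047, Pfkfb3 -0.027 and -0.039 (mean of probes -0.133) and Pygb -0.030 and -0.042, and the deposited table gave Pfkp -0.011. There normexp gave Gbe1 0.062, Pgk1 0.0084 and Tpi1 0.0088, and quantile normalisation Pgk1 0.027. Without single arrays that comparison ranged over -0.271 to 0.044 for Ankrd37, -0.189 to 0.12 for Egln1, -0.107 to 0.102 for Gbe1, -0.063 to 0.126 for Gpi1, -0.114 to 0.141 for Pdk1, -0.061 to 0.105 for Pfkfb3, -0.106 to 0.082 for Pgk1, -0.155 to 0.193 for Pygb and -0.13 to 0.056 for Tpi1.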
